A study of Mus musculus with 7 samples.

Results

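*Marcks* and *Marcksl1* encode a pair of related proteins that lie under the plasma membrane and bind it in a regulated way. They were picked with earlier results of these libraries in view: *Marcks* was selected on its higher normalized counts in muscle fibers of dyW fetuses, and *Marcksl1* was chosen as its closest relative. Every difference between the genotypes given for these 2 genes is therefore a description, without a test. They are 2 of the 31531 genes in the table of normalized counts, and both were among the 25791 genes with a mean of at least 5 normalized counts, which are called the tested genes here.

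The study asked how the loss of the laminin α2 chain alters gene expression in fetal muscle fibers. RNA was sequenced from fibers of the epaxial (back) muscles of mouse fetuses at embryonic day 17.5, in 4 WT libraries (genotype wt) and 3 dyW libraries (genotype dyW/dyW), each from another fetus. Both groups came from crosses of heterozygous mice. The dyW allele is an insertion in *Lama2*, the gene of the laminin α2 chain, and it models a congenital muscular dystrophy. It is present in all cells of the fetus and not in the fibers alone. Fibers were freed with dispase and collagenase, caught on a strainer and lysed directly, so that cells attached to the fibers could be lysed with them, and no cell type was sorted.

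MARCKS proteins carry a myristoyl group at their N terminus and a short, strongly basic effector domain. Both parts hold the protein at the inner face of the membrane, where the effector domain binds the phosphoinositide PIP2, and the same domain binds actin filaments and calmodulin. Phosphorylation of its serines by protein kinase C, or binding of calmodulin, releases the protein into the cytosol and frees the PIP2. In muscle, MARCKS is known from myoblasts, where it takes part in migration and fusion, and it is abundant in brain and in fibroblasts.

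In GRCm39, *Marcks* (ENSMUSG00000069662) occupies the minus strand of chromosome 10 between 37009239 and 37014942. *Marcksl1* (ENSMUSG00000047945) occupies the plus strand of chromosome 4 between 129406288 and 129409778. Each gene has 2 exons, with 4206 exonic bases in *Marcks* and 2695 in *Marcksl1*, and 0 annotated genes overlap either of them. The coding sequences run over 309 codons in *Marcks* and 200 in *Marcksl1*, and in both the second codon is glycine, the residue that is myristoylated. Both share the effector domain, which is shown because it is the part that protein kinase C, calmodulin, PIP2 and actin contact. The 25 codons richest in lysine, arginine, phenylalanine and serine were taken from each coding sequence. In *Marcks* they lie in exon 2, at codons 145 to 169 (GRCm39, chr10:37012527-37012601, minus strand). In *Marcksl1* they also lie in exon 2, at codons 87 to 111 (GRCm39, chr4:129408681-129408755, plus strand). The sequences are written 5′ to 3′ on the coding strand, and capitals mark the codons for lysine and arginine.
Marcks: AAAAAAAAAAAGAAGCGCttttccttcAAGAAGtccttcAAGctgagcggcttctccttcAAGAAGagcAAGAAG
Marcksl1: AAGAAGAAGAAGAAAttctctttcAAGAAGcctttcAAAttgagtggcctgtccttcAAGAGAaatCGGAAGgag
The *Marcks* stretch holds 12 lysine codons and 1 arginine codon, and the *Marcksl1* stretch 10 and 2. Aligned with each other they had the same base in 55 of 78 columns, or 70.5%. The rest of the coding sequences differs more in composition, since alanine takes 28.8% of the codons of *Marcks* and 15.5% of those of *Marcksl1*.

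The libraries differed in ways that touch every value below. Reads assigned to genes numbered from 470804 to 2220813 in WT and from 3663905 to 18297106 in dyW, so each dyW library was deeper than each WT library, and depth and genotype cannot be told apart. From 25530 to 29594 genes had a read in WT, and from 14209 to 19360 in dyW. The targeted gene *Lama2* stood at 90.6 to 111 normalized counts in WT, at 4.29 and 6.07 in dyW1 and dyW2, and at 139.7 in dyW3. By this gene the library labelled dyW3 goes against its label. The check is weak, because the WT values rest on 17 to 51 reads and lie near the level of receptor genes given below. The difference of *Lama2* between the groups did not pass (exact two-sided permutation test, *P*-value of 0.286, where the smallest possible value is 0.057). The 10 muscle fiber markers summed to 2506 to 67937 normalized counts in WT, and to 54.1, 7189 and 4201 in dyW1, dyW2 and dyW3. In dyW1, 6 of these 10 markers (*Ckm*, *Myh3*, *Myh8*, *Tnnc2*, *Actn2* and *Des*) had no read. WT1 held 433621 normalized counts of the 5 cartilage markers, against at most 7908 in any other library.

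*Marcks* was higher in each dyW library than in each WT library. The WT libraries had 42.6, 94.4, 160.0 and 123 normalized counts (WT1 to WT4). The dyW libraries had 787, 1584 and 1091 (dyW1 to dyW3). The groups did not overlap, and the lowest dyW value was 4.92 times the highest WT value. WT fibers had on average 105 ± 49.5 normalized counts (SD, n = 4) and dyW fibers 1154 ± 402 (SD, n = 3), which is 11 times as much, or 11.3 times without the library labelled dyW3. Within a group the spread was moderate, with 3.75 times between the lowest and highest WT library and 2.01 times in dyW.

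*Marcksl1* did not separate the groups. It stood at 21.3, 80.9, 30.8 and 62.9 normalized counts in WT1 to WT4. In dyW1 to dyW3 it stood at 169, 55 and 74.7. The groups overlapped, since WT2 lay above both dyW2 and dyW3, and only dyW1 exceeded every WT library. WT fibers averaged 49.0 ± 27.7 normalized counts (SD, n = 4) and dyW fibers 99.5 ± 60.8 (SD, n = 3), a ratio of 2.03. The order of the libraries was not that of *Marcks*: dyW1 was the lowest dyW library for *Marcks* and the highest for *Marcksl1*, and WT3 was the highest WT library for *Marcks* and the second lowest for *Marcksl1*.

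**Figure D1:**
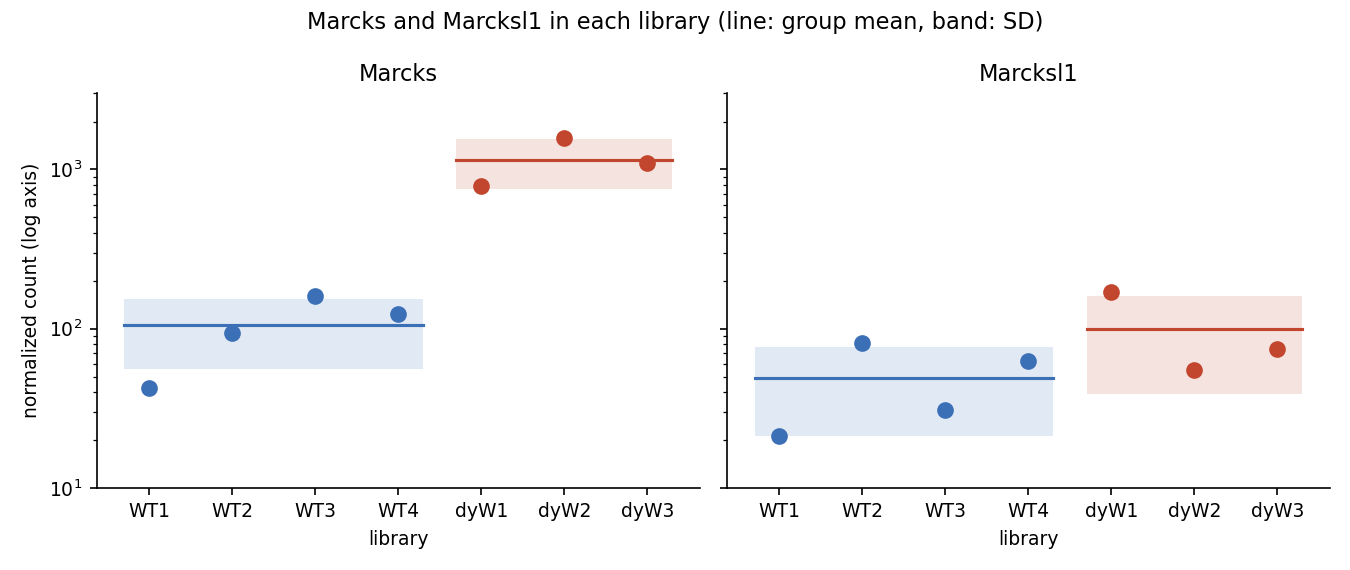
Normalized counts (log axis) of *Marcks* (left) and *Marcksl1* (right) in each of the 4 WT libraries (blue points) and 3 dyW libraries (red points), with the group mean as a line and the SD as a band. The dyW points of *Marcks* lie between 787 and 1584, all above the WT points (42.6 to 160.0), whereas those of *Marcksl1* (55 to 169) overlap the WT points (21.3 to 80.9).

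On the log2 scale (log2 of the normalized count plus 1), the difference of dyW minus WT was 3.54 (SE 0.591) for *Marcks* and 1.03 (SE 0.722) for *Marcksl1*. The median difference of all 25791 tested genes was −1.99, so both lay above the middle of the table. Ordered from the most positive difference, *Marcks* was number 4 and *Marcksl1* number 1967. By the call rule of the study (adjusted *P*-value under 0.01 and log2 fold change beyond 1.5, here from limma on all tested genes), 17 genes or 0.0659% were higher in dyW and 4830 genes or 18.7% were lower. These calls, that of *Marcks* among them, were not stable: limma called 0 genes of the whole table in either direction at equal totals, with the receptor level subtracted, with a pseudocount of 10, at a mean of at least 50, or without WT2, WT4 or dyW2. After quantile normalization it called 0 higher and 2 lower, and voom on the reads called 5 higher and 6079 lower. *Marcks* belongs to the 17 because it was selected on this contrast, and *Marcksl1* belongs to neither set. Every dyW library lay above every WT library in 3.28% of the tested genes and below in 31.5%, and nothing is read from the place of *Marcks* in the first of these sets.

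The number of reads behind these values was small in WT. *Marcks* had 8, 35, 78 and 39 reads in WT1 to WT4, and the exact 95% Poisson interval of the 8 reads in WT1 was 3.45 to 15.8. In dyW1 to dyW3 it had 8081, 12522 and 2235 reads. *Marcksl1* had 4, 30, 15 and 20 reads in WT and 1732, 435 and 153 in dyW, so its WT values carry the larger counting error. Such intervals cover counting error only, since amplified reads are not independent molecules.

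Scaled to the library total instead of the deposited size factors, *Marcks* held 17.0 to 35.1 of every 1000000 reads in WT and 563 to 684 in dyW, a ratio of means of 25.3. On this scale the dyW libraries were closer to each other (1.22 times between the lowest and the highest) than with the deposited factors. *Marcksl1* held 6.75 to 20.3 of every 1000000 reads in WT and 23.8 to 121 in dyW. Here the groups of *Marcksl1* did not overlap and the ratio was 5.29, so whether *Marcksl1* separated the genotypes depended on the scaling. After quantile normalization the ratio was 7.65 for *Marcks*, without overlap, and 1.77 for *Marcksl1*, with overlap.

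Per kb of exon, *Marcks* ranked higher among expressed genes in each dyW library than in any WT library. Its level per kb was 24.9 ± 11.8 normalized counts in WT fibers (SD, n = 4) and 274 ± 95.5 in dyW fibers (SD, n = 3). In rank among genes with a read, it was number 8310, 2228, 1275 and 1485 in WT1 to WT4 and number 114, 144 and 137 in dyW1 to dyW3. *Marcksl1* was number 10570, 1403, 4398 and 2061 in WT and 499, 2782 and 3292 in dyW. Both genes thus had their lowest rank in WT1, the shallowest library, where 67.2% of the genes with a read lay below *Marcks* and 58.3% below *Marcksl1*, and the ranks of *Marcksl1* overlapped between the groups.

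The WT levels were also set against genes known mainly from sensory neurons of the nose. This level was the median, over 1207 receptor genes for odorants and pheromones, of the reads per kb of exon. *Marcks* held 3.01, 3.35, 10.5 and 5.02 times that level in WT1 to WT4, and *Marcksl1* held 2.35, 4.49, 3.15 and 4.02 times. The receptor median was 0 in dyW1 and dyW2, and in dyW3 *Marcks* held 497 times and *Marcksl1* 53.1 times that level. With this level subtracted, the ratio of dyW to WT was 13.7 for *Marcks*, still without overlap, and 2.76 for *Marcksl1*, with overlap.

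The ratio of both genes inside a library does not depend on the size factor of that library. *Marcks* had 2.0, 1.17, 5.20 and 1.95 times the normalized counts of *Marcksl1* in WT1 to WT4. In dyW1 to dyW3 the ratio was 4.67, 28.8 and 14.6. It averaged 2.58 ± 1.79 over the WT libraries (SD, n = 4) and 16 ± 12.1 over the dyW libraries (SD, n = 3), but dyW1 lay below WT3, so the groups overlapped. Per kb of exon, which allows a comparison of levels between the genes, *Marcks* stood at 0.748 to 3.33 times *Marcksl1* in WT and at 2.99 to 18.4 times in dyW. WT1 and WT4 were nearest to parity per kb, at 1.28 and 1.25. In WT2 *Marcksl1* had the higher level per kb (0.748), and *Marcks* was the more abundant of the pair in the other 6 libraries.

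Levels were also read relative to fibroblast genes, because MARCKS is abundant in fibroblasts and the sum of these genes separated the groups. The 7 fibroblast markers (*Pdgfra*, *Col1a1*, *Col1a2*, *Col3a1*, *Dcn*, *Lum* and *Postn*) summed to 4174 to 14747 normalized counts in WT and to 21951 to 32625 in dyW, without overlap. Singly, only *Pdgfra* and *Col1a2* separated the groups. In dyW1, *Col3a1* (232) lay below every WT library (581 to 4129), and *Dcn* (134), *Lum* (683) and *Postn* (108) lay within the WT range. *Col1a1* had 1987 in dyW2, below the 2362 of WT2. All 7 had a positive log2 difference with the deposited, same-total, quantile and receptor-subtracted scalings, with a median of 1.29 in the first. Of all tested genes, 20.4% were positive with the deposited factors, 33.1% at equal totals, 52.4% after quantile normalization and 55% with the receptor level subtracted. By limma and by voom 0 were called, with 2 of the 7 higher at an unadjusted *P*-value below 0.05 (against 2.81% of all tested genes), although *Pdgfra*, a receptor of mesenchymal cells (1.98, limma adjusted *P*-value of 0.0286), and *Col1a2*, a chain of collagen I (2.10, 0.0157), would pass at 0.05. In these bulk samples, more cells of a type and more RNA per cell cannot be told apart. Per 1000 normalized counts of the summed fibroblast markers, *Marcks* held 10.2, 9.95, 10.8 and 15.6 in WT1 to WT4. In dyW1 to dyW3 it held 35.9, 48.5 and 39.9. On this measure *Marcks* stayed without overlap between the groups, and the means of 11.7 ± 2.66 in WT (SD, n = 4) and 41.4 ± 6.47 in dyW (SD, n = 3) had a ratio of 3.56. Against single markers the picture was less uniform, for *Marcks* stayed without overlap relative to *Col3a1* and overlapped relative to each of the other 6 markers. Per 1000 counts of *Col3a1*, *Marcks* held 34.6 to 73.4 in WT, 135 in dyW2 and in dyW3, and 3393 in dyW1. That last ratio rests on the low *Col3a1* of dyW1 (232, against 11721 in dyW2 and 8082 in dyW3). *Marcksl1* held 2.09 to 8.53 per 1000 normalized counts of the summed markers in WT and 1.69 to 7.69 in dyW, with overlap. How far fibroblast RNA takes part in the level of *Marcks* was not tested.

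**Figure D2:**
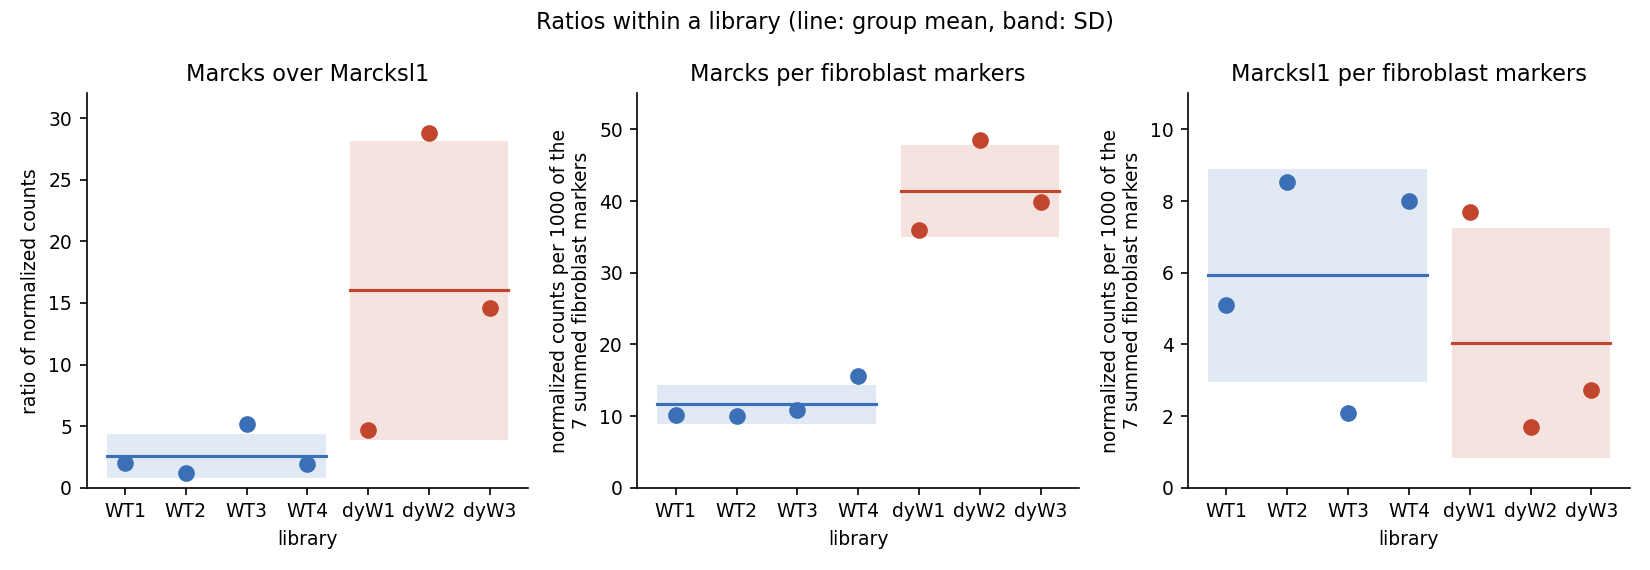
Ratios within each library for the 4 WT (blue) and 3 dyW (red) libraries, with the group mean as a line and the SD as a band: *Marcks* over *Marcksl1* (left), and *Marcks* (middle) and *Marcksl1* (right) per 1000 normalized counts of 7 summed fibroblast markers. *Marcks* per fibroblast markers lies between 9.95 and 15.6 in WT and between 35.9 and 48.5 in dyW, while both other ratios overlap between the groups.

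Of the other cell types whose RNA the preparation could hold, only endothelium had a summed level that separated the groups in the direction of *Marcks*, and narrowly. Its 5 markers summed to 328 to 525 normalized counts in WT and 555 to 1258 in dyW. Of these 5, 4 had a positive log2 difference and *Pecam1*, an adhesion protein of endothelial cells, had −0.57 (119 to 283 in WT, 67.9 to 186 in dyW), and 0 of them were called by limma or voom (2 higher at an unadjusted *P*-value below 0.05, against 2.81% of all tested genes). The part of endothelial RNA in the level of *Marcks* was not tested. Immune markers summed to 112 to 229.7 in WT and 31.5 to 192 in dyW, and neuron and Schwann cell markers to 133 to 359 in WT and 30.1 to 774 in dyW. *Ptprc*, *Adgre1* and *Itgam*, which define leukocytes and macrophages, had no read in dyW1 and dyW2, while *Cd68*, a lysosomal protein of macrophages, had 39.2 and 31.4 normalized counts there and *Csf1r*, a receptor of macrophages, had 18.9 and 0.126. In the library labelled dyW3, *Ptprc* had 99.6, within the WT range, and *Adgre1* had 44.4, above every WT library. *Tubb3* and *Elavl4*, which define neurons, had none in these libraries either, while *Stmn2*, a stathmin of neurons, had 30.1 and 14.8. The part of immune or neural RNA in the level of *Marcks* was not tested. Pericyte and smooth muscle markers (474 to 2338 in WT, 249 to 1157 in dyW), muscle progenitor markers (42.6 to 160.5 and 39.6 to 200.2) and erythroid markers (16 to 291219 and 14.8 to 171955) overlapped. The summed cartilage markers ran from 140.2 to 433621 in WT and from 19.7 to 419 in dyW.

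Leaving out single libraries kept the difference of *Marcks* between 3.16 (without WT1) and 3.79 (without WT3 or without dyW1) on the log2 scale. That of *Marcksl1* ran from 0.57 (without dyW1) to 1.37 (without dyW2), and it was 0.70 without WT1, so its size moved with each of these libraries. Without the library labelled dyW3 the values were 3.55 for *Marcks* and 1.15 for *Marcksl1*. Scaling all libraries to the same total gave the highest values, 4.69 and 2.17. The difference of *Marcks* minus *Marcksl1* was 2.51 with the deposited factors and ran from 1.91 (without dyW2) to 3.22 (without dyW1).

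**Figure D3:**
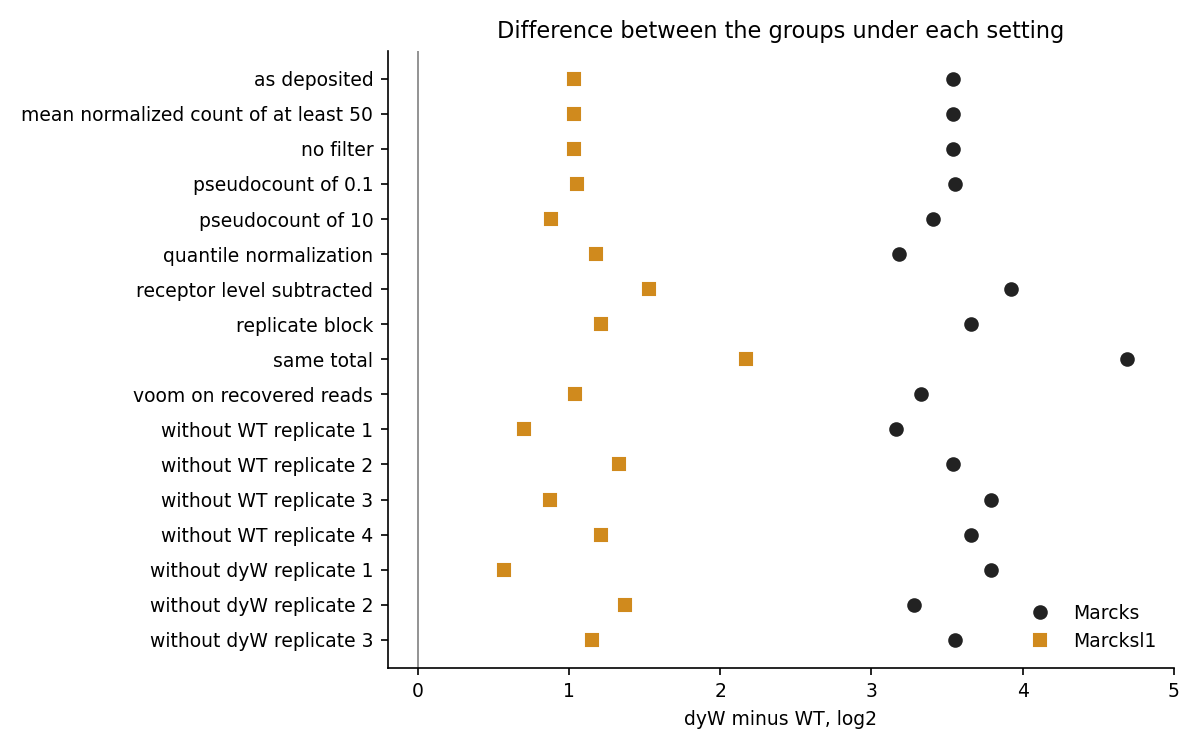
Difference of dyW minus WT on the log2 scale (x axis) for *Marcks* (black circles) and *Marcksl1* (orange squares) under the deposited scaling and 16 alternatives (y axis). *Marcks* lies between 3.16 and 4.69 and *Marcksl1* between 0.57 and 2.17, and *Marcks* is above *Marcksl1* in each setting.

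The genes with the pattern most like each of the pair were taken by the smallest root mean square difference over the 7 libraries between log2 profiles centred on their own mean, among 6111 genes with a mean of at least 50 normalized counts. For *Marcks* they were *Fap*, a surface protease of activated fibroblasts (0.48), *Col5a2*, a chain of collagen V (0.51), *Capza2*, a subunit of the actin capping protein (0.57), *Cops2*, a subunit of the COP9 signalosome (0.65), and *Snx2*, a sorting nexin of the retromer (0.66). *Fap* stood at 32, 83.6, 170.3 and 78.7 normalized counts in WT and at 350.1, 652 and 553 in dyW, so it also had its lowest value in WT1 and its highest in dyW2. Of these 5 genes, *Col5a2* was called higher and the other 4 were not. They were chosen for likeness to *Marcks* over the same libraries, so their higher values in dyW follow from that choice and are no further result. For *Marcksl1* the nearest were *Stx7*, a syntaxin of late endosomes (0.27), *Ftsj3*, a factor of ribosome assembly (0.35), *Abl2*, a tyrosine kinase that binds actin (0.39), *Prkch*, a protein kinase C (0.39), and *Hdac2*, a histone deacetylase (0.39). *Stx7* had 21.3, 67.4, 49.2 and 81.8 normalized counts in WT and 193, 68.7 and 86.4 in dyW, with the highest value in dyW1 as for *Marcksl1*. The lists of the pair shared no gene, and *Marcksl1* was number 1462 in likeness to *Marcks* (1.54).

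The genes that act on MARCKS proteins were followed in 9 lists with 73 genes, of which 72 were tested (*Capn3*, a calpain of muscle, was under the minimum at a mean of 4.67 normalized counts). Of the 72, limma called 0 higher and 5 lower in dyW by the rule above, and voom called 0 higher and 4 lower, while 13 were higher and 11 lower by limma with unadjusted *P*-values below 0.05. That balance depended on the scaling, and the share of all tested genes moved too. At equal totals 28 were higher and 5 lower (38.9% and 6.94%, against 9.65% and 30.1% of all), after quantile normalization 6 and 3 (8.33% and 4.17%, against 8.59% and 6.86%), and with the receptor level subtracted 21 and 1 (29.2% and 1.39%, against 12.7% and 5.67%). With the deposited factors the shares were 18.1% and 15.3%, against 2.81% and 41.5% of all. With a replicate block 4 were higher and 8 lower (5.56% and 11.1%, against 1.16% and 33.1% of all), and voom gave 3 and 12 (4.17% and 16.7%, against 0.543% and 36.7% of all). The lower genes were then the more numerous in the lists, but a smaller share than among all tested genes. With a limit of 0.05 on the adjusted *P*-value, 5 were higher, which is 6.94% against 1.0% of all tested genes, and 7 lower, which is 9.72% against 29.6%. All dyW libraries lay above all WT libraries for 13 of them (18.1%, against 3.28% of all tested genes) and below for 7 (9.72%, against 31.5%). Their median log2 difference was 0.11, against −1.99 over all tested genes, which contain many genes with few reads. Among genes with a mean of at least 50 normalized counts both were closer, at 0.68 for the 46 listed genes and 0.20 for all 6111. There 23.9% of the listed genes were higher and 2.17% lower at an unadjusted limma *P*-value below 0.05, against 11.7% and 8.77% of all. The shares with the deposited factors above thus also carry a difference in abundance.

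Of the 12 listed kinases, which are the forms of protein kinase C, *Rock1*, *Rock2* and the kinase JNK1, 3 fell and 0 rose (by voom, 2 and 0). The 3 are 25% of the list, near the 18.7% of all tested genes that fell. At an unadjusted *P*-value below 0.05 by limma, 4 were lower and 1 higher, against 41.5% and 2.81% of all tested genes. *Prkcb*, *Prkcq* and *Prkcz*, which encode the β, θ and ζ forms of protein kinase C, had log2 fold changes of −4.63, −3.59 and −4.71 (limma adjusted *P*-values of 0.00377, 0.00801 and 0.00372). These genes were low throughout, with mean values of 42.6, 29.1 and 42.2 normalized counts in WT and 0.711, 1.78 and 0.715 in dyW. Their log2 differences shrank to −2.01, −0.87 and −2.51 after quantile normalization and to −0.53, −0.27 and −2.37 with the receptor level subtracted. The other forms were not called, among them *Prkca* with −0.295 and *Prkcd* with −0.17, the α and δ forms. The most abundant kinases of the list were *Rock1* and *Rock2*, kinases that act on the actomyosin cytoskeleton, with log2 differences of 0.84 and 1.57. *Rock2* (126 ± 26.2 in WT, SD, n = 4, and 379 ± 107 in dyW, SD, n = 3) passed at 0.05 (limma adjusted *P*-value of 0.0397) but not at 0.01. Its log2 difference was 0.69 after quantile normalization, 2.72 at equal totals and 2.98 with the receptor level subtracted, and its adjusted *P*-value reached 0.647 over the 16 alternatives.

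Of the 7 enzymes of phosphoinositide synthesis, *Pip5k1b*, a kinase that makes PIP2, fell (−3.49, limma adjusted *P*-value of 0.00964), from 30.1 ± 9.54 normalized counts (SD, n = 4) to 2.24 ± 1.94 (SD, n = 3). Its sign turned to 0.70 with the receptor level subtracted. The most abundant members, *Pi4ka* and *Pi4k2a*, which make the precursor of PIP2, had −0.40 and −0.69, and *Pip5k1a* had the most positive value, 0.615. Of the 10 phospholipases C, which cleave PIP2, *Plcb2* fell, with 32, 35.1, 10.3 and 72.4 normalized counts in WT and no read in dyW, at least 52.5-fold lower against a floor of 3 reads in each dyW library. That bound holds for the deposited factors: the WT reads were 0.416 to 1.83 times the receptor level, and the log2 difference of −4.98 shrank to −2.42 after quantile normalization and −2.10 with the receptor level subtracted. *Plcg1*, the most abundant, had −0.82, *Plce1* −2.54, and *Plcb1* the most positive value, 0.74. Of the 10, 1 had a positive sign, with a list median of −2.33 that turned to 0.76 with the receptor level subtracted.

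The 5 genes that fell had between 4 and 23 reads in each WT library. In WT they held from 0.405 to 2.21 times the receptor level per kb of exon, whereas *Marcks* held at least 3.01 times. None of the 5 was called after scaling to equal totals, after quantile normalization, with the receptor level subtracted, or without WT2, WT4 or dyW2, settings in which limma called 0 genes of the whole table lower (2 after quantile normalization). They make up 6.94% of the 72 genes, below the 18.7% of all tested genes that fell. Over the 16 alternatives, *Prkcq* and *Pip5k1b* were each called in 2, and *Prkcb*, *Prkcz* and *Plcb2* each in 7. *Pip5k1b* was not called by voom.

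Calmodulin, which lifts MARCKS off the membrane, was followed in *Calm2* and *Calm3*. *Calm2* had 2924 ± 4769 normalized counts in WT (SD, n = 4) and 5856 ± 6939 in dyW (SD, n = 3), with a log2 difference of 1.73, and *Calm3* had a log2 difference of 0.68. Neither was called or had an unadjusted *P*-value below 0.05, the groups overlapped for both, and dyW2 was the highest dyW library for each, as it was for *Marcks*. Of the 4 enzymes of N-terminal myristoylation, 0 were called by limma or voom, and 0 had an unadjusted *P*-value below 0.05. *Nmt2*, an N-myristoyltransferase, had 68.5 ± 13 normalized counts in WT (SD, n = 4) and 152 ± 38.6 in dyW (SD, n = 3), without overlap (1.13), *Nmt1* had −0.37, and *Metap2*, which removes the first methionine, had 1.03.

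Of the 7 subunits of phosphatases in the list, which holds PP1 and PP2A, 0 were called by limma or voom, with 3 higher at an unadjusted *P*-value below 0.05 (2.81% of all tested genes). *Ppp2ca*, a catalytic subunit of phosphatase PP2A, came closest, with 127 ± 31.3 normalized counts in WT (SD, n = 4) and 481 ± 77.7 in dyW (SD, n = 3), without overlap (1.93, limma adjusted *P*-value of 0.0143). *Ppp2cb* had the most positive value, 2.13, *Ppp1ca* was the most abundant with 0.67, and *Ppp2r1b* the most negative with −2.98. Of the 4 tested proteases, which include calpains, proteases that can cut MARCKS, 0 were called by limma or voom, with 1 higher at an unadjusted *P*-value below 0.05 (2.81% of all tested genes). *Capns1*, the small calpain subunit, had 1.88 and *Capn2* 0.96, both without overlap, *Ctsb*, a lysosomal cathepsin, had 0.375, and *Capn1* had −1.94.

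Of the 23 genes of cortical actin, the network that MARCKS tethers to the membrane, limma called 0 in either direction and voom 1 lower, with 7 higher and 3 lower at an unadjusted *P*-value below 0.05 (2.81% and 41.5% of all tested genes). *Capza2*, also among the genes nearest to *Marcks*, had 179.7 ± 143 normalized counts in WT (SD, n = 4) and 923 ± 190.0 in dyW (SD, n = 3), without overlap (2.72, limma adjusted *P*-value of 0.0190). *Rdx* and *Msn*, which link actin to the membrane as radixin and moesin, had 1.69 and 1.93 and would pass at 0.05 (limma adjusted *P*-values of 0.0491 and 0.0402). The actins themselves had the opposite sign, with *Actb* at −1.87 and *Actg1* at −2.30 (limma adjusted *P*-values of 0.0349 and 0.0122), and both kept that sign under the other scalings but shrank to −0.72 and −1.15 at equal totals. Over the 16 alternatives the highest limma or voom adjusted *P*-values were 0.196 for *Capza2*, 0.489 for *Rdx*, 0.382 for *Msn*, 0.455 for *Actb* and 0.279 for *Actg1*, and for *Ppp2ca* 0.367, so each of these passes at 0.05 was lost in some setting. The log2 difference of *Rdx* was 0.98 after quantile normalization, 2.84 at equal totals and 2.87 with the receptor level subtracted. That of *Ppp2ca* was 1.16, 3.07 and 2.62 in the same order. *Tmsb4x*, which binds actin monomers, had 0.03 and *Add2*, an adducin, −2.71.

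Other genes with a PIP2-binding basic stretch of the same kind are *Gap43* and *Basp1*. *Basp1* stood at 5.33, 29.7, 32.8 and 40.9 normalized counts in WT and at 57.5, 117 and 82.5 in dyW. Its groups did not overlap, and dyW2 was its highest library as for *Marcks*, but it was not called (1.86, limma adjusted *P*-value of 0.108). *Gap43* had 10.7, 27.0, 16.4 and 15.7 in WT and 10.4, 109 and 0 in dyW (−0.70, limma adjusted *P*-value of 0.728), so it overlapped.

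**Figure D4:**
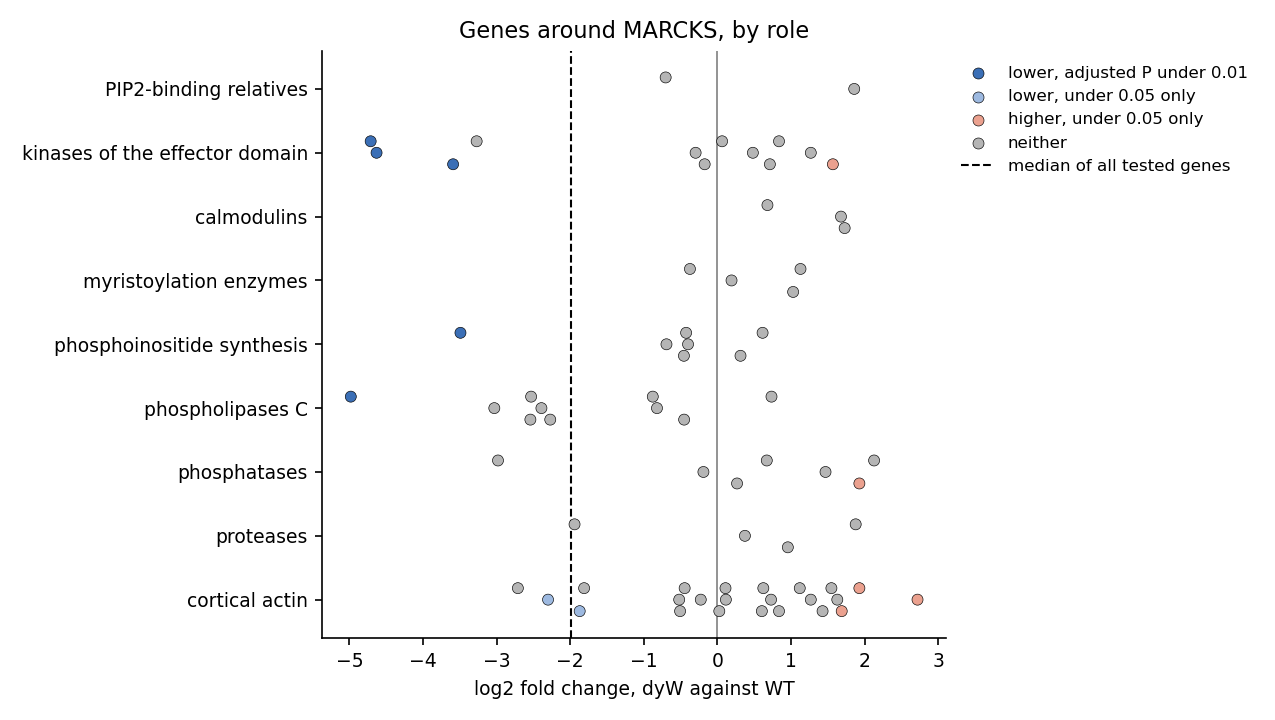
Log2 fold change of dyW against WT (x axis) of the 72 tested genes that act on or beside MARCKS, one point a gene, by role (y axis). Dark blue points were called lower at an adjusted P-value under 0.01 (5 genes), light blue (2 genes) and light red points (5 genes) passed at 0.05 only, and the dashed line at −1.99 is the median of all tested genes.

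*Marcks* shares its chromosome with the targeted gene, and the start sites of *Lama2* and *Marcks* lie 9.52 Mb apart. Of the 241 tested genes within 15 Mb of *Lama2*, 1 was called higher, which is *Marcks* itself, and 48 lower (19.9%, against 18.7% of all tested genes). On the rest of the chromosome limma and voom called 0 of 1063 higher (32 at an unadjusted *P*-value below 0.05, against 2.81% of all tested genes), and limma called 210 lower (19.8%). Of the 71 tested genes between *Lama2* and *Marcks*, limma and voom called 0 higher (1 at an unadjusted *P*-value below 0.05) and 16 lower (22.5%). With an adjusted *P*-value below 0.05, 4 of the 241 were higher (1.66%, against 1.0% of all), namely *Marcks*, *Phactr2*, *Heca* and *Amd1*. Within 1 Mb of the start site of *Marcks* 8 genes were tested, and 0 of the other 7 were called higher. Of these, 3 (*Gm47054*, *Gm26535* and ENSMUSG00002076892) were called lower, each without a read in dyW. *5930403N24Rik*, which lies 373 bases from *Marcks* on the other strand, stood at 4.10 to 32 normalized counts in WT and 0 to 11.1 in dyW (−2.52, limma adjusted *P*-value of 0.110). *Hdac2*, 131348 bases away, had 0.855 (limma adjusted *P*-value of 0.312). Beside *Marcksl1*, *Hdac1* lies 116 bases away on the other strand and had 0.28 (limma adjusted *P*-value of 0.766). The annotated pseudogenes *Marcksl1-ps4* on chromosome 13 and *Marcksl1-ps5* on chromosome X have no row in the table, and the authors counted reads that mapped to a single place, so reads shared with a copy would not be in these values. Around *Lama2*, as in the whole table, limma called 0 higher and 0 lower without WT2, WT4 or dyW2. At an unadjusted *P*-value below 0.05 it gave 6 and 70 of 221, 8 and 76 of 229, and 7 and 81 of 238. The shares of all tested genes were 1.83% and 32.2%, 1.75% and 32.2%, and 2.81% and 34.1%. Without dyW1 it called 13 of 241 lower, where the whole table had 2090 of 26945.

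**Figure D5:**
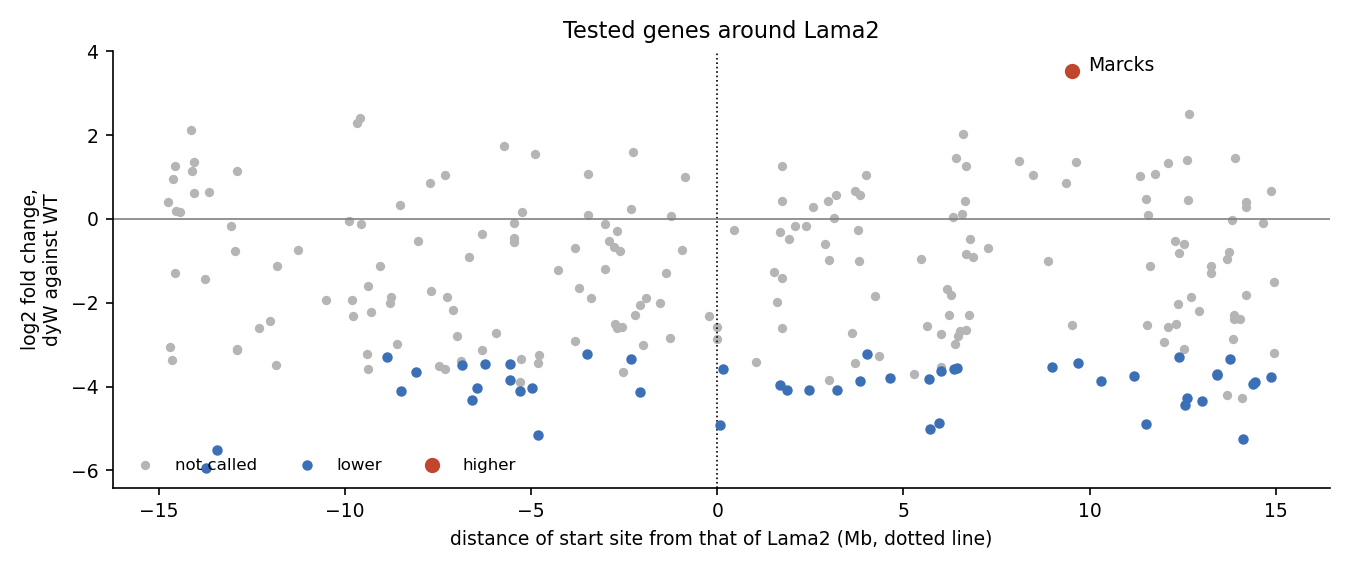
Log2 fold change of dyW against WT (y axis) of the 241 tested genes within 15 Mb of the start site of *Lama2* (dotted line), by distance in Mb (x axis), with genes called lower in blue, higher in red and others in grey. *Marcks*, at 9.52 Mb and 3.54, is the red point, and the 48 blue points are spread over the whole stretch.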

How the data were processed

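RNA of muscle fibers from 4 WT and 3 dyW fetuses was sequenced after SMART-seq2 and Nextera XT library preparation. Per the labels, the authors used cutadapt, STAR, DESeq2 and the GRCm39 build, and per their methods uniquely mapped reads were assigned to genes with featureCounts. The deposited values are normalized counts (counts divided by size factors) with decimal commas, and no score or log was applied. A second deposited table holds the authors' own fold changes and *P*-values and was not used. Each value was a whole multiple, within 0.01, of 1 read in its library, which returned the reads (100.00% whole). Genes with a mean of at least 5 were fitted with limma 3.58.1 (trend, R 4.3.3) on log2(normalized count + 1), with Benjamini-Hochberg adjustment. Each fetus gave 1 library. The members and lists were chosen with earlier results of these data known. Genes named were both members, called list genes, the 2 most abundant and the extreme genes of each list, the 5 nearest patterns and the neighbours. Some further names (*Prkca*, *Prkcd*, *Phactr2*, *Heca*, *Amd1*, and those passing at 0.05) and the fibroblast ratios were chosen after their values were seen. Annotation (GENCODE M39, GRCm39) matched 99.2% of IDs. Same-numbered libraries were not paired, as their deviations correlated at 0.15, −0.05 and −0.09. The fit was tested on simulated data. Alternatives were pseudocounts of 0.1 and 10, other minimums, scalings, thresholds, windows, a replicate block, subtraction of the receptor level, libraries left out in turn and, added after seeing the data, voom on the reads. A gene of the lists is not reported by name here.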

Additional observations from a re-analysis of the deposited data

Results flagged for a closer look

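Among 76 groups of 4 WT libraries (72 genes around MARCKS, both members, their ratio and *Lama2*), 7 had 1 library whose gap to its nearest neighbour took more of the whole range than Dixon's 95% limit for 4 values allows, which chance alone does in about 1 of 20 groups. *Marcks*, *Marcksl1* and their ratio were not among them. WT3 stood alone for 5 of the genes. It was high for *Calm2* (10064 normalized counts against 245 to 960.0 in the others, gap over range 0.927), *Actb* (27816 against 4449 to 8039, 0.846), *Capza1* (273 against 42.6 to 69.2, 0.885) and *Prkce* (39 against 15.7 to 16.2, 0.981), and low for *Prkcz* (22.6 against 47.2 to 51.2, 0.859). WT1 was high for *Mapk8* (197 against 101 to 105, 0.959) and WT4 for *Metap2* (160.5 against 99.8 to 107, 0.887). WT3 was the deepest WT library and also had the highest WT value of *Marcks*. The cause was not tested.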

How the results depend on the processing

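Over 16 alternatives *Marcks* stayed between 3.16 and 4.69, *Marcksl1* between 0.57 and 2.17 and their difference between 1.91 and 3.22 (log2, dyW minus WT), with 0 changes of sign. Only scaling to the same total moved *Marcks* (4.69) and *Marcksl1* (2.17) by more than the spread between libraries. With a replicate block they were 3.66 and 1.21 (difference 2.45), and the 5 pathway genes called lower became 0 (over all tested genes, 4830 became 1); the libraries share only a number. Leaving out 1 library gave 3.16 to 3.79, 0.57 to 1.37 and 1.91 to 3.22. The median of all tested genes moved from −1.99 to −1.24 with the same total, 0.06 after quantile normalization and 0.30 with the receptor level subtracted (0.20 at a mean of at least 50). *Marcks* lay 5.93, 3.12 and 3.62 above it under these scalings, in that order. Pathway genes called lower numbered 0 at a mean of at least 50, a pseudocount of 10, quantile normalization, receptor subtraction and the same total (limma, with 1, 10, 3, 1 and 5 at an unadjusted *P*-value under 0.05), where the whole table had 0, 0, 2, 0 and 0, and 0 to 6 with 1 library left out (0 without WT2, WT4 or dyW2, as in the whole table, with 8, 7 and 9 at an unadjusted *P*-value under 0.05). Those called higher numbered 1 with a pseudocount of 0.1, 5 at 0.05, and 0 to 1 with 1 library left out, where the whole table had 41, 259 and 0 to 25. Around *Lama2*, 0 of 77 were higher and 14 lower within 5 Mb (18.2% lower, against 18.7% of all tested genes). Within 15 Mb, 4 and 74 of 241 passed at 0.05 (1.66% and 30.7%, against 1.0% and 29.6% of all). With 1 library left out they were 0 to 1 and 0 to 67, where the whole table had 0 to 25 and 0 to 6698. The difference of *Lama2* was −53.2 normalized counts and −98.0 to −30.3 with 1 library left out. The planned edgeR fits were not run. The 8 to 78 reads of *Marcks* in WT limit the precision of its ratio.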
